A study of Homo sapiens with 14 samples.

Results

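The genes described here are 10 members of the YAP and TEAD pathway, picked by gene name out of the 19410 genes measured. They are the coactivators YAP1 and WWTR1 (the gene of TAZ), the transcription factor TEAD1, the inhibitors LATS2, AMOTL1, and AMOTL2, and the target genes CTGF (now named CCN2), CYR61 (now named CCN1), ANKRD1, and AXL. RNA-Seq was performed on MDA-MB-231 cells, an established triple-negative breast cancer line, and on 6 derivatives edited by CRISPR/Cas9. The study asked which genes depend on SAP30, a subunit of the SIN3 corepressor complex, on the SIN3A and SIN3B scaffolds of that complex, and on the histone methyltransferase MLL1. The conditions were untreated parental cells and the lines SAP30-KO1, SAP30-KO2, SIN3A+SIN3B-DKO1, SIN3A+SIN3B-DKO2, MLL1-KO1, and MLL1-KO2, where KO is a knockout and DKO a double knockout, with 2 libraries of each of the 7 conditions. All cells grew in DMEM with serum and were given no treatment beyond the editing and puromycin selection of the edited lines.

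By the study's methods, each edited line was a mixture of several knockout cells grown from single cells, so a line is neither 1 clone nor an unselected pool. The edited lines had received guide vectors by transfection or by lentivirus, followed by puromycin, and the labels give no control guide to the parental cells, so editing as such and loss of the gene cannot be told apart in a comparison with parental. The labels do not say whether the 2 libraries of a condition came from separate cultures, and p-values therefore measure the spread between these libraries, which may be technical. The 2 parental libraries served as the control for every edited line, so the 6 comparisons with parental are not independent.

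The Hippo pathway restrains organ and tumor growth. Its kinases MST1 and MST2 (genes STK4 and STK3) activate LATS1 and LATS2, which phosphorylate YAP and TAZ and keep them out of the nucleus, and angiomotin family proteins such as AMOTL1 and AMOTL2 hold YAP and TAZ at cell junctions and at actin. When this restraint is low, YAP and TAZ enter the nucleus, bind TEAD factors, and switch on genes such as CTGF, CYR61, and ANKRD1. LATS2, AMOTL1, AMOTL2, and AXL are also known as YAP targets, so the first 3 act in negative feedback. MDA-MB-231 cells carry an inactivated NF2, an upstream activator of LATS, and are known for high YAP and TAZ activity. RNA levels do not report phosphorylation or where YAP and TAZ proteins lie in the cell.

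TEAD factors bind the bases GGAATG, read as CATTCC on the other strand. Both readings were searched in the 250 bases before the transcription start in RefSeq promoters (GRCh38.p14), which matched 8 of the 10 members. TEAD1 and CYR61 had no entry among these promoters, so theirs were not searched. The CTGF promoter held 3 copies, which start 169, 104, and 95 bases before the start site. The ANKRD1 promoter held 2 copies, at 220 and 128 bases, and the YAP1 promoter 1 copy, at 162 bases. One of 2 listed promoters of AMOTL2 held 1 copy at 69 bases and one of 2 of AXL held 1 copy at 212 bases, whereas WWTR1, LATS2, and AMOTL1 held none. Of all 35116 promoters in the table, 11.9% held at least 1 copy, 0.94% at least 2, and 0.0826% at least 3. The windows of CTGF, ANKRD1, and YAP1, 3 of the members with a copy, are shown here, 5′ to 3′ on the strand of the gene, with the motif in capitals. The same letters were located in GRCh37. CTGF lies at chr6:132272587-132272696 (minus strand), ANKRD1 at chr10:92680952-92681079 (minus strand), and YAP1 at chr11:101981001-101981036 (plus strand), all upstream of the transcribed gene.
CTGF: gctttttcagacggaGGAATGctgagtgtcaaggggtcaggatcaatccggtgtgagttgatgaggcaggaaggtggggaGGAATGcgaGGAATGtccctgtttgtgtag
ANKRD1: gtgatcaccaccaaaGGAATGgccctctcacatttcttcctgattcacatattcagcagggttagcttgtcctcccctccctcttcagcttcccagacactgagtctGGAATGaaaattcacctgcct
YAP1: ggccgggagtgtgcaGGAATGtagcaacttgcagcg
A match is a description of letters, and no binding was measured in these files.

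Levels are given in TPM, the length-scaled share of a transcript in a library, so that levels of different genes can be compared. The libraries held 18415036 to 23162682 reads as recovered from the values, and each member had between 1021 and 39698 reads in a library, so counting noise was small for all 10. Differences are on the log2(TPM + 0.5) scale with their standard error (SE), and a gene was called when limma's Benjamini-Hochberg adjusted p was under 0.05 and the difference reached 1.5-fold, 0.585 on the log2 scale. All 10 members were among the 13540 genes that passed the filter of 1 TPM in at least 2 of the 14 libraries.

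The targeted genes were checked first. SAP30 was at 78.9 and 82.8 TPM in parental cells and at 2.75 to 4.96 TPM in the 4 SAP30-KO libraries. SIN3B was at 75.1 and 77.4 TPM in parental cells and at 43.5 to 50.2 TPM in the 4 SIN3A+SIN3B-DKO libraries, but SIN3A was at 43.1 and 45.4 TPM in parental cells and at 55.1 to 62.5 TPM in the DKO libraries, and so gave no check of the edit. The MLL1 gene, listed as MLL (KMT2A), was at 56.7 and 49.0 TPM in parental cells, at 15.8 to 17.4 in MLL1-KO1, and at 25.7 and 27.7 in MLL1-KO2, but also at 23.0 to 35.4 in the SAP30-KO libraries. The markers of the line were present in all libraries, with VIM at 5741 to 8805 TPM, CD44 at 267 to 611, and FN1 at 187 to 388. The estrogen receptor gene ESR1 was at most at 0.191 TPM and the progesterone receptor gene PGR at most at 0.139. The epithelial markers were lower in every edited line: CDH1 was at 1.07 and 1.25 TPM in parental cells and at most at 0.282 in edited libraries, EPCAM was at 19.2 and 19.1 TPM and at 5.33 to 12.6, and both were called lower in all 6 lines. The 3 mesenchymal markers were called higher in MLL1-KO1, CD44 and FN1 in MLL1-KO2, and FN1 in SIN3A+SIN3B-DKO1, with no such call in the other lines. These markers moved in lines in which pathway genes also did, and their part in those results was not tested. Of markers of other cells, PTPRC was at most at 0.603 TPM, CD3E at most at 0.0802, and CDH5 at most at 0.0337. The keratinocyte marker KRT10 was present in all libraries (21.0 to 32.9 TPM) and called in no line, and KRT1 was not found by name. PECAM1 (1.55 to 3.97 TPM) was called higher in the SAP30-KO and MLL1-KO lines. In bulk RNA, fewer cells that make a transcript and less transcript per cell cannot be told apart.

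**Figure D1:**
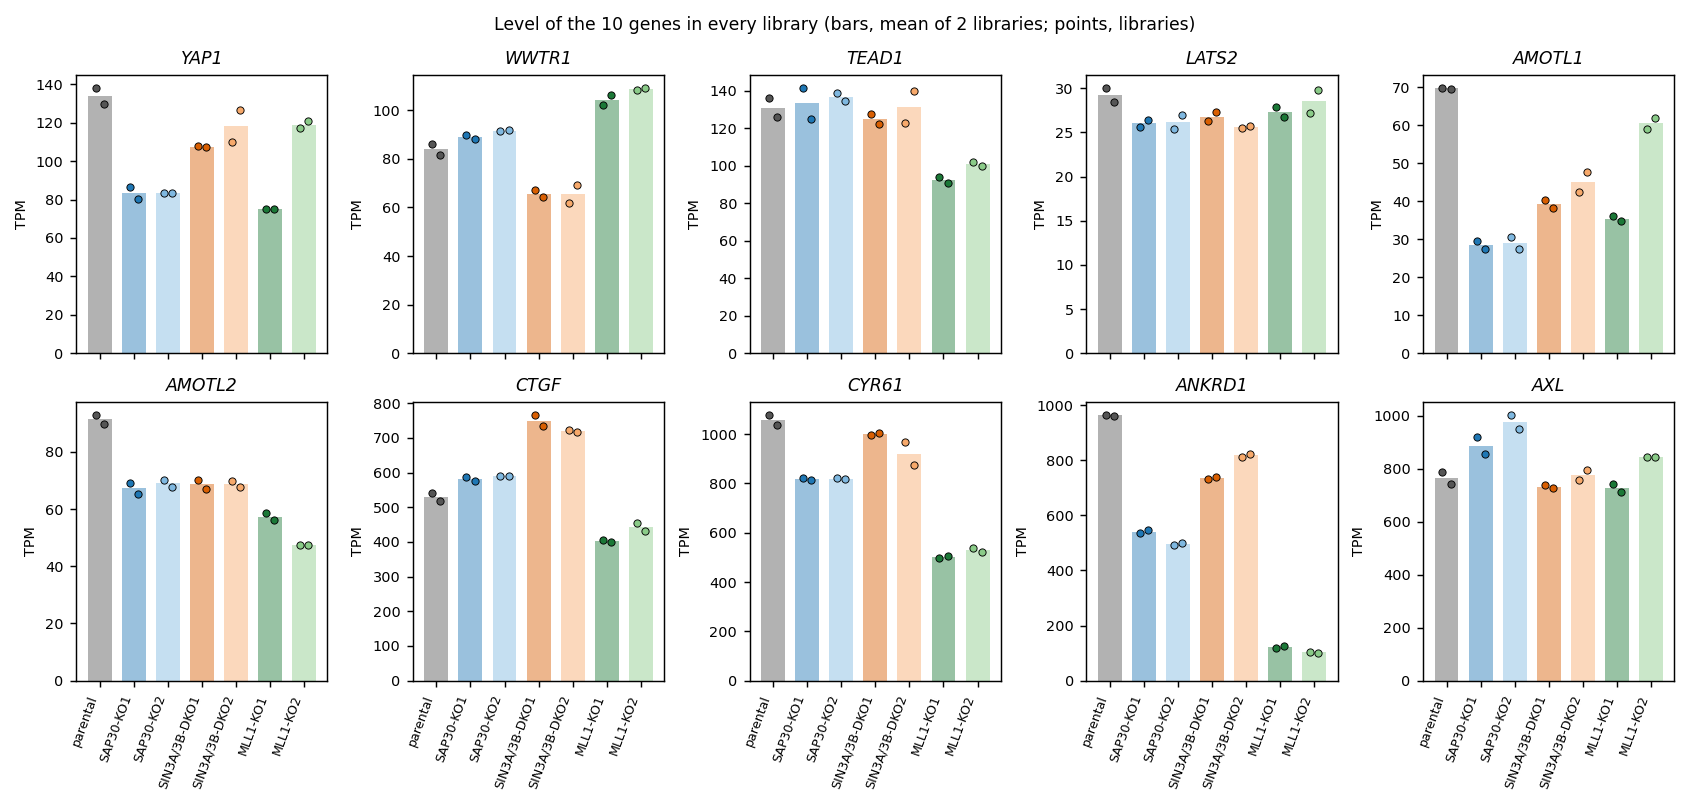
Level of each of the 10 genes in TPM (vertical axis, from 0, its own scale for each gene) in the 7 conditions (horizontal axis); points are the 2 libraries and bars their mean. ANKRD1 stood at 961 to 964 TPM in parental cells and at 101 to 127 TPM in the 4 MLL1-KO libraries, while LATS2 stayed between 25.4 and 30.0 TPM in all 14.

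Of the coactivators, YAP1 was at 138 and 130 TPM in parental cells. SAP30-KO1 held 86.3 and 80.1 TPM, SAP30-KO2 83.4 and 83.6, and MLL1-KO1 75.2 in both libraries. It was at 108 and 107 TPM in SIN3A+SIN3B-DKO1, 110 and 126 in SIN3A+SIN3B-DKO2, and 117 and 121 in MLL1-KO2. All 12 edited libraries lay below both parental libraries. YAP1 fell by 0.68 in SAP30-KO1 (SE 0.0602, adjusted p = 4.56e-06), by 0.68 in SAP30-KO2 (adjusted p = 4.67e-06), and by 0.83 in MLL1-KO1 (adjusted p = 5.25e-07), to 62.1%, 62.3%, and 56.1% of parental. In the other 3 lines the difference was -0.32, -0.18, and -0.17, with adjusted p of 0.00108, 0.0252, and 0.0273, short of 1.5-fold. The fit gives a gene the same SE in all lines, although the 2 SIN3A+SIN3B-DKO2 libraries were the farthest apart. With each library left out in turn, the SIN3A+SIN3B-DKO2 value ranged from -0.29 to -0.08.

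WWTR1, the gene of the second coactivator, was at 86.1 and 81.5 TPM in parental cells. It was at 67.1 and 64.1 TPM in SIN3A+SIN3B-DKO1, 61.8 and 69.0 in SIN3A+SIN3B-DKO2, 102 and 106 in MLL1-KO1, with 108 and 109 in MLL1-KO2. The SAP30-KO libraries lay between 87.9 and 91.8 TPM, just above parental. WWTR1 was not called in any line, with differences of -0.35 and -0.36 in the DKO lines (adjusted p = 0.000178 and 0.000182) and 0.31 and 0.37 in the MLL1-KO lines (adjusted p = 0.000301 and 7.56e-05). YAP1 and WWTR1 moved in opposite directions in the SAP30-KO and MLL1-KO lines, whereas both were lower in the DKO lines. The ratio of YAP1 to WWTR1 within a library was 1.60 and 1.59 in parental cells. It was between 0.910 and 0.963 in the SAP30-KO libraries and at 0.736 and 0.707 in MLL1-KO1. In MLL1-KO2 it was 1.08 and 1.11, and in the DKO libraries 1.61 to 1.83.

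TEAD1, the DNA-binding partner, was at 136 and 126 TPM in parental cells, 94.0 and 91.1 in MLL1-KO1, with 102 and 99.8 in MLL1-KO2. The 8 libraries of the other lines lay between 123 and 142 TPM and overlapped with parental. The difference was -0.50 in MLL1-KO1 (SE 0.0691, adjusted p = 9.06e-05) and -0.37 in MLL1-KO2 (adjusted p = 0.000675), below all parental libraries but short of 1.5-fold.

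Among the inhibitors, the angiomotin-like gene AMOTL1 was at 69.8 and 69.5 TPM in parental cells. SAP30-KO1 held 29.5 and 27.4 TPM, SAP30-KO2 30.7 and 27.5, and MLL1-KO1 36.0 and 34.7. It was at 40.3 and 38.3 TPM in SIN3A+SIN3B-DKO1, 42.3 and 47.7 in SIN3A+SIN3B-DKO2, and 59.1 and 61.9 in MLL1-KO2. All edited libraries lay below parental, and AMOTL1 was called in 5 of the 6 lines. It fell by 1.28 in SAP30-KO1 (SE 0.0688, adjusted p = 1.27e-07), by 1.25 in SAP30-KO2, by 0.97 in MLL1-KO1, by 0.82 in SIN3A+SIN3B-DKO1, and by 0.63 in SIN3A+SIN3B-DKO2 (adjusted p = 2.68e-05). The last of these rests on 1 library, since without SIN3A+SIN3B-DKO2 replicate 1 the value was -0.54 and the call was lost. In MLL1-KO2 the difference was -0.20 (adjusted p = 0.0238).

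AMOTL2, from the same family, was at 92.9 and 89.9 TPM in parental cells, 58.5 and 56.3 in MLL1-KO1, with 47.6 and 47.3 in MLL1-KO2. The 8 libraries of the SAP30-KO and DKO lines lay within 65.3 to 70.3 TPM, between parental and the MLL1-KO lines, and their 4 condition means could not be ordered beyond the spread of the libraries. AMOTL2 fell by 0.67 in MLL1-KO1 (SE 0.0431, adjusted p = 2.12e-07) and by 0.94 in MLL1-KO2 (adjusted p = 1.23e-08). In the other 4 lines the difference was -0.40 to -0.44, short of 1.5-fold. Scaling the libraries by median ratio brought the MLL1-KO1 value to -0.57 and ended that call.

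LATS2, the kinase that phosphorylates YAP and TAZ, was at 30.0 and 28.4 TPM in parental cells and at 25.4 to 29.8 TPM in the 12 edited libraries. It varied the least of the 10, each of the 7 condition means overlapping with the next in order. Of the edited libraries, only MLL1-KO2 replicate 2 (29.8 TPM) was not below both parental libraries. The LATS2 differences from parental lay between -0.19 and -0.04, and no line passed 1.5-fold. Past the p threshold were SAP30-KO1, SAP30-KO2, and SIN3A+SIN3B-DKO2 (adjusted p = 0.0328, 0.0407, and 0.0188). The sign of the LATS2 difference in the MLL1-KO lines turned with the scaling, from -0.10 to 0.04 in MLL1-KO1 and from -0.04 to 0.02 in MLL1-KO2 under quantile normalization.

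Of the target genes, ANKRD1, a stress-responsive ankyrin repeat protein, varied the most. It was at 964 and 961 TPM in parental cells, 120 and 127 in MLL1-KO1, with 106 and 101 in MLL1-KO2. SAP30-KO1 held 534 and 548 TPM and SAP30-KO2 493 and 499. The DKO lines held 733 and 741 TPM in SIN3A+SIN3B-DKO1 and 813 and 822 in SIN3A+SIN3B-DKO2. No 2 conditions overlapped, and all edited libraries lay below parental. ANKRD1 fell by 2.96 in MLL1-KO1 (SE 0.0316, adjusted p = 5.89e-13) and by 3.21 in MLL1-KO2 (adjusted p = 4.92e-13), to 12.8% and 10.7% of parental. It fell by 0.83 in SAP30-KO1 (adjusted p = 1.62e-08) and by 0.96 in SAP30-KO2 (adjusted p = 5.98e-09), to 56.2% and 51.5%. The DKO differences of -0.39 and -0.24 were past the p threshold (adjusted p = 2.75e-06 and 0.000114) but short of 1.5-fold.

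CYR61, a secreted matricellular protein, was at 1077 and 1038 TPM in parental cells, 498 and 506 in MLL1-KO1, with 538 and 522 in MLL1-KO2. SAP30-KO1 held 820 and 814 TPM, SAP30-KO2 823 and 817, SIN3A+SIN3B-DKO1 996 and 1006, and SIN3A+SIN3B-DKO2 967 and 875. All edited libraries lay below parental, the MLL1-KO libraries far below the rest. CYR61 fell by 1.07 in MLL1-KO1 (SE 0.0404, adjusted p = 3.24e-09) and by 0.996 in MLL1-KO2 (adjusted p = 4.53e-09). The SAP30-KO differences were both -0.37 and the DKO differences -0.08 and -0.20, none past 1.5-fold.

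CTGF, the paralog of CYR61, took another order. It was at 542 and 517 TPM in parental cells, 765 and 733 in SIN3A+SIN3B-DKO1, 721 and 718 in SIN3A+SIN3B-DKO2, 406 and 400 in MLL1-KO1, with 454 and 432 in MLL1-KO2. The SAP30-KO libraries lay between 575 and 589 TPM. The DKO and SAP30-KO libraries were thus above both parental libraries and the MLL1-KO libraries below, and no 2 neighbours in this order overlapped. The differences were 0.50 and 0.44 in the DKO lines (SE 0.0339, adjusted p = 7.03e-07 and 2.01e-06), 0.13 and 0.15 in the SAP30-KO lines (adjusted p = 0.00691 and 0.00305), and -0.39 and -0.26 in the MLL1-KO lines (adjusted p = 2.15e-06 and 5.56e-05). CTGF was called in no line, since all 6 differences were short of 1.5-fold.

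Levels of CTGF and ANKRD1, whose promoters hold the 3 and 2 copies of the TEAD motif shown above, therefore parted within each library. The ratio of CTGF to ANKRD1 in TPM was 0.563 and 0.537 in parental cells, 0.873 to 1.04 in the DKO libraries, 1.05 to 1.19 in the SAP30-KO libraries, 3.38 and 3.16 in MLL1-KO1, with 4.30 and 4.28 in MLL1-KO2. A ratio within a library does not depend on how libraries were scaled to each other. The ratio of CYR61 to CTGF was 1.99 and 2.01 in parental cells and 1.18 to 1.42 in the 12 edited libraries, lower in each of them.

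AXL, a receptor tyrosine kinase linked to invasion, was at 787 and 744 TPM in parental cells. SAP30-KO1 held 921 and 855 TPM, SAP30-KO2 1003 and 950, and MLL1-KO2 846 in both libraries. The DKO lines (728 to 795 TPM) and MLL1-KO1 (743 and 711) lay around parental. AXL was called in no line. Its difference was 0.21 and 0.35 in the SAP30-KO lines (adjusted p = 0.00214 and 6.5e-05) and 0.14 in MLL1-KO2 (adjusted p = 0.0143).

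**Figure D2:**
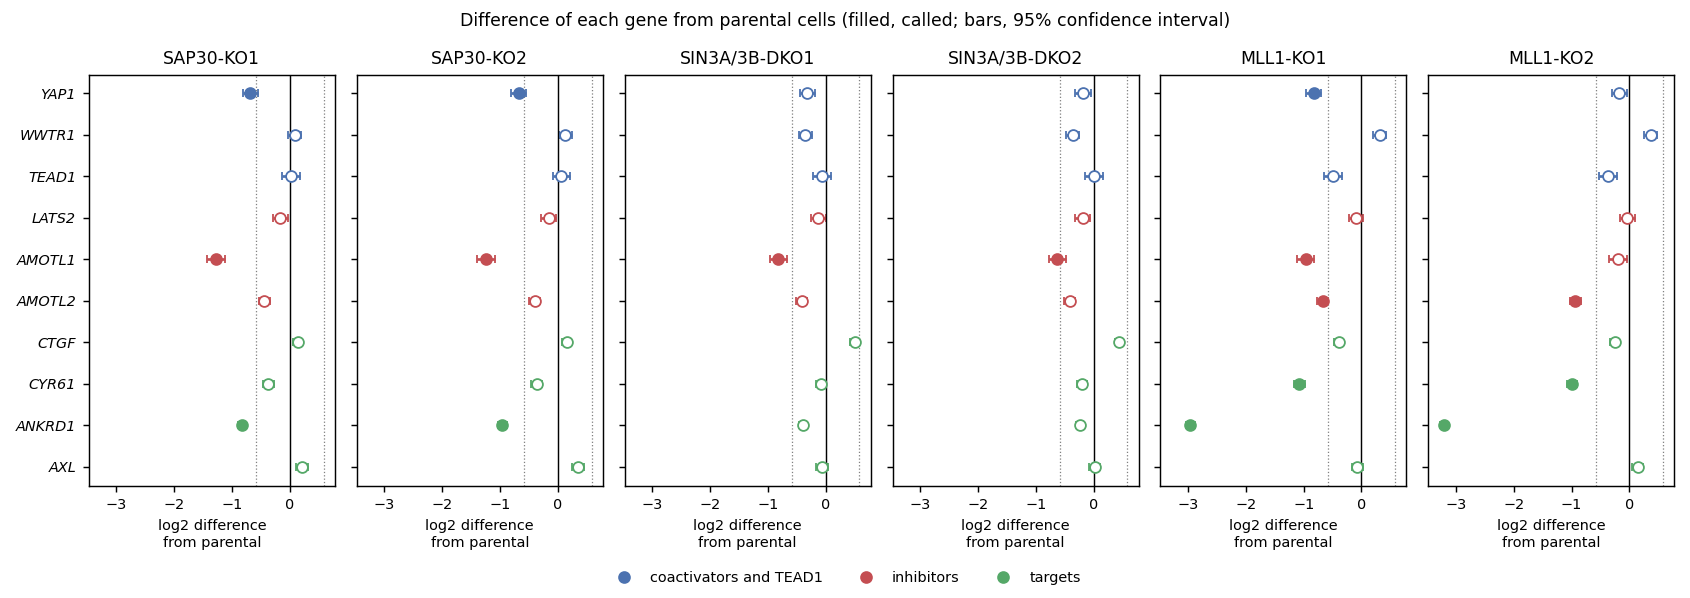
Difference of each gene from parental cells on the log2(TPM + 0.5) scale (horizontal axis) in the 6 edited lines (panels); filled points were called, bars are 95% confidence intervals, dotted lines mark 1.5-fold, and colors mark coactivators and TEAD1 (blue), inhibitors (red), and targets (green). The points farthest to the left are ANKRD1 in MLL1-KO1 and MLL1-KO2, at -2.96 and -3.21.

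Counted over the 10 genes, none was called higher than parental in any line, where 7.8%, 7.44%, 7.76%, 6%, 6.89%, and 10.2% of all tested genes were called higher in SAP30-KO1, SAP30-KO2, SIN3A+SIN3B-DKO1, SIN3A+SIN3B-DKO2, MLL1-KO1, and MLL1-KO2. In SAP30-KO1, 3 were called lower (YAP1, AMOTL1, and ANKRD1 in both SAP30-KO lines), and 15.7% of all tested genes were called in either direction and 7.86% lower. In SAP30-KO2, 3 were called lower, against 15.6% of all genes called and 8.12% called lower. In SIN3A+SIN3B-DKO1 and SIN3A+SIN3B-DKO2 only AMOTL1 was called, 1 of 10, against 16.4% and 13.6% of all genes, of which the lower calls made up 8.66% and 7.56% of those tested. In MLL1-KO1, 5 were called lower (YAP1, AMOTL1, AMOTL2, CYR61, and ANKRD1), against 23.2% of all genes called and 16.3% called lower. In MLL1-KO2, 3 were called lower (AMOTL2, CYR61, and ANKRD1), against 25.2% and 14.9%. The 1 of 10 in the DKO lines was near the share of all genes. With the p threshold alone and no fold minimum, 8, 8, 6, 8, 8, and 9 of the 10 members differed from parental in the 6 lines, as did 51%, 51.7%, 56%, 49.6%, 60.5%, and 64.2% of all genes. The median difference over the 10 members was -0.27, -0.26, -0.22, -0.19, -0.58, and -0.23 in the 6 lines in the same order, beside 0.03, 0.01, 0.00, 0.01, -0.09, and -0.04 over all tested genes.

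YAP1 and its target ANKRD1 were both called lower in SAP30-KO1, SAP30-KO2, and MLL1-KO1, whereas in MLL1-KO2 the targets ANKRD1 and CYR61 were called lower and YAP1 was not. In MLL1-KO1, YAP1 was at 56.1% of parental, ANKRD1 at 12.8%, and CYR61 at 47.5%. In MLL1-KO2, the level of YAP1 was at 88.7% of parental and that of WWTR1 at 130%, while ANKRD1 was at 10.7% and CYR61 at 50.1%. In the SAP30-KO lines YAP1 was at 62.1% and 62.3% of parental, while ANKRD1 was at 56.2% and 51.5%, CTGF at 110% and 111%, and AXL at 116% and 128%. In the DKO lines WWTR1 was at 78.3% and 78.0% and CTGF at 142% and 136%. The median over the 4 targets was -0.12 and -0.11 in the SAP30-KO lines, -0.07 and -0.09 in the DKO lines, and -0.73 and -0.63 in the MLL1-KO lines. The median over YAP1, WWTR1, and TEAD1 was 0.02, 0.06, -0.32, -0.18, -0.50, and -0.17 in the 6 lines, and over the 3 inhibitors -0.44, -0.40, -0.41, -0.41, -0.67, and -0.20.

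YAP1 and AMOTL1 lie 7.54 Mb apart on the long arm of chromosome 11 (YAP1 at 101981178 to 102104155 and AMOTL1 at 94439597 to 94609913, both GRCh37), and the genes around them were lower too. Of the 150 tested genes within 20 Mb of YAP1, 89.3% and 92% had a difference below 0 in the SAP30-KO lines, 76% and 76.7% in the DKO lines, 97.3% in MLL1-KO1, and 82% in MLL1-KO2. YAP1, AMOTL1, and the MLL1 gene are themselves among these 150. The median of those genes was -0.74, -0.78, -0.29, -0.21, -0.94, and -0.37 in the 6 lines. Over the other 590 tested genes of the chromosome it was -0.29, -0.26, 0.03, 0.01, -0.06, and 0.02. The window of 51 genes in chromosome order around YAP1, YAP1 included, had a median of -0.74 and -0.78 in the SAP30-KO lines. This median was -0.32 and -0.24 in the DKO lines, -0.92 in MLL1-KO1, and -0.36 in MLL1-KO2. YAP1 itself was at -0.68, -0.68, -0.32, -0.18, -0.83, and -0.17, within 0.1 of that median in every line but MLL1-KO2, where it was higher than its neighbours.

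When the median of neighbouring genes (a running median over 51 genes) was subtracted in each library before the fit, YAP1 was called in no line. Its value turned positive in all 6 lines, which included the 3 where it had fallen. It became 0.06 in SAP30-KO1, 0.13 in SAP30-KO2, and 0.08 in MLL1-KO1 (SE 0.0389, adjusted p = 0.209, 0.0213, and 0.11). It was 0.02 and 0.09 in the DKO lines (adjusted p = 0.662 and 0.0723) and largest in MLL1-KO2, at 0.23 (adjusted p = 0.000401), short of 1.5-fold. For AMOTL1 the subtraction left -0.64 in SAP30-KO1, the single line in which it was still called, -0.52 in SAP30-KO2, -0.53 and -0.34 in the DKO lines, -0.11 in MLL1-KO1, and 0.19 in MLL1-KO2. ANKRD1, on chromosome 10 (92671853 to 92680844), was called after the subtraction in both SAP30-KO and both MLL1-KO lines, at -0.83, -0.87, -2.64, and -2.86, although its neighbours had medians of -0.36 and -0.33 in the MLL1-KO lines. CYR61, on chromosome 1 (86046444 to 86050272), was at -0.79 and -0.78 in the MLL1-KO lines after it, and its SAP30-KO values went from -0.37 to -0.69, then called, and -0.56, since its neighbours were higher than parental there by medians of 0.29 and 0.22. AMOTL2 was at -0.53 in MLL1-KO1, no longer called, and at -0.76 in MLL1-KO2. CTGF reached 0.61 in SIN3A+SIN3B-DKO1 and was called there. The subtraction would also remove regulation that neighbouring genes share, and DNA copy number was not analysed here. TEAD1, on the short arm of chromosome 11 at 89.3 Mb from YAP1, had neighbours with medians between -0.18 and 0.13. All medians of neighbours given here include the gene itself.

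**Figure D3:**
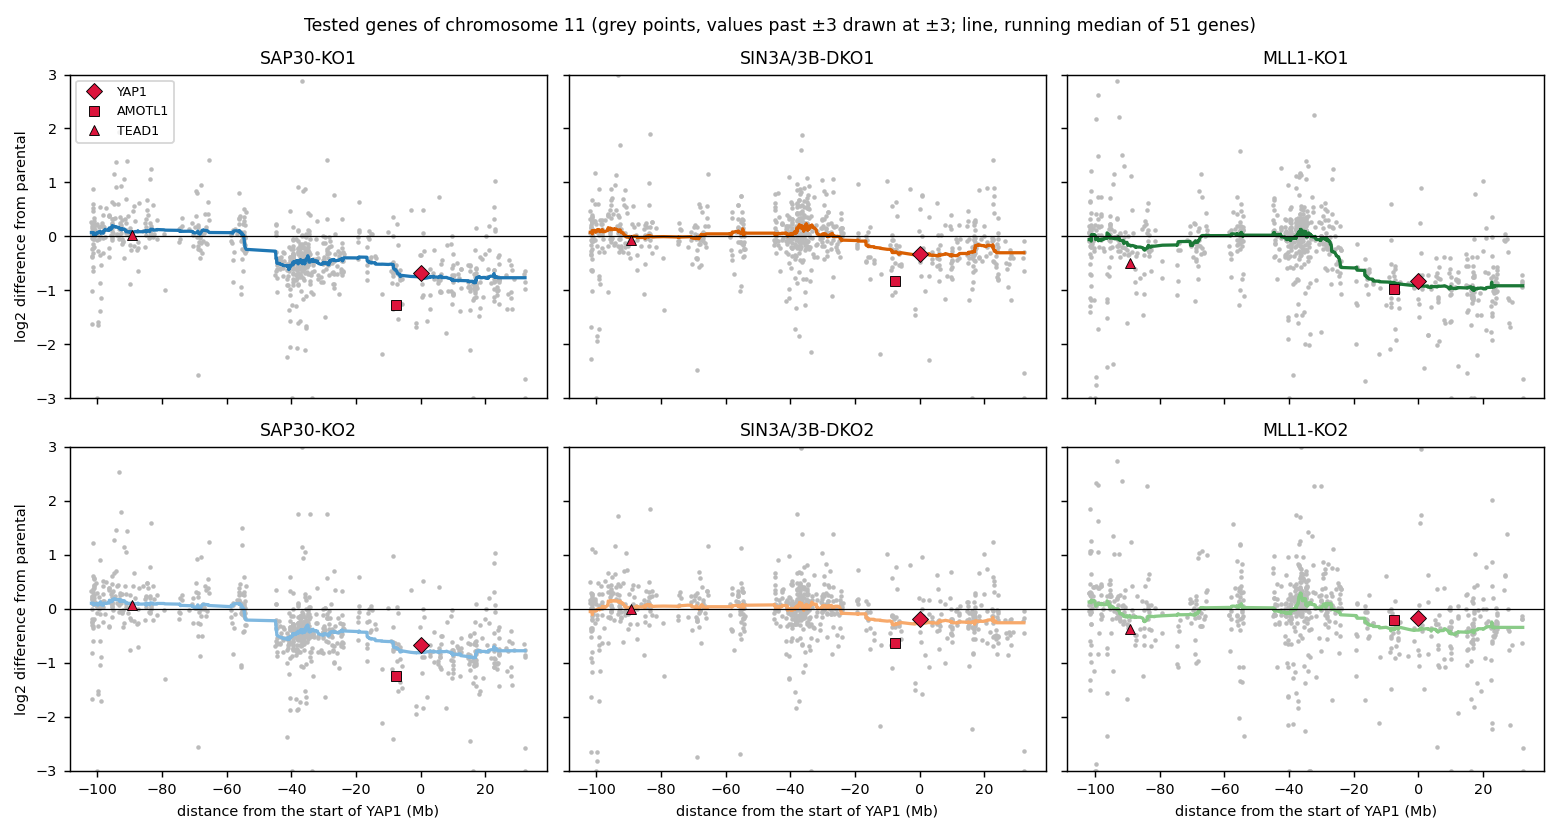
Log2 difference from parental (vertical axis) of the 740 tested genes of chromosome 11 (grey points) against their distance in Mb from the start of YAP1 (horizontal axis), 1 panel for each edited line; the colored line is the running median over 51 genes, and red symbols mark YAP1, AMOTL1, and TEAD1. The running median at YAP1 is lowest in MLL1-KO1 (-0.91). YAP1 lies near it in all panels but MLL1-KO2, where YAP1 lies above (-0.17 against -0.40). AMOTL1 lies below the running median at its own position in all panels but MLL1-KO2, with -0.97 against -0.86 in MLL1-KO1.

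The MLL gene itself is 16.3 Mb from YAP1 in the same stretch. Its difference from parental was -0.95 and -0.65 in the SAP30-KO lines and -1.64 and -0.97 in the MLL1-KO lines, beside a running median there of -0.86, -0.91, -0.94, and -0.42. Of the 3 tested genes whose mean levels over the 7 conditions were most like those of YAP1, CBL (Pearson r = 0.99) and PHLDB1 (r = 0.99) were 17.1 and 16.5 Mb from it, and the third was GIT2 (r = 0.99). The 3 most like CTGF were DAXX, NSMCE1, and INTS1 (all r = 0.99), and the 3 most like CYR61 were NFE2L1 (r = 0.997), UGCG (r = 0.997), and ALDH7A1 (r = 0.996). These are the highest among 13540 genes over only 7 points that share the libraries, and they are given as a description.

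The edited lines were also compared with each other, where parental cells play no part. Between SAP30-KO1 and SAP30-KO2 no member was called, as were 0.148% of all genes. The widest of the 10 intervals was that of TEAD1, -0.19 to 0.11, and ANKRD1 had the lowest unadjusted p, 0.00228, at a difference of 0.13 and an adjusted p of 0.14. At an unadjusted p under 0.05, 2 members (ANKRD1 and AXL) differed, and voom on recovered reads called none. Between the DKO lines no member was called, against 2.23% of all genes. ANKRD1 differed by -0.15 (adjusted p = 0.013), short of 1.5-fold, 3 members (ANKRD1, CYR61, and AMOTL1) had an unadjusted p under 0.05, and voom called none.

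Between the MLL1-KO lines, 2 members were called, both lower in MLL1-KO1, against 10.4% of all genes called and 7.15% called lower. YAP1 was lower in MLL1-KO1 than in MLL1-KO2 by -0.66 (SE 0.0602, adjusted p = 1.03e-05), and AMOTL1 by -0.77 (SE 0.0688, adjusted p = 9.07e-06). Both are the chromosome 11 genes described above, and after subtraction of the neighbouring median the differences were -0.15 and -0.30, not called. ANKRD1 and AMOTL2 differed by 0.26 and 0.27 in the other direction, short of 1.5-fold.

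The MLL1-KO lines were compared with the SAP30-KO lines as the means of 2 lines each. In all comparisons between genotypes, SE and p rest on the spread between libraries of a line and leave out the spread between lines. ANKRD1 was lower in the MLL1-KO lines by -2.19 (SE 0.0223, adjusted p = 1.43e-13), CYR61 was lower by -0.67 (adjusted p = 4.59e-09), and AMOTL1 was higher by 0.68 (adjusted p = 3.23e-07). These were 3 of the 10 members, against 19.8% of all genes. For AMOTL1, the difference between the 2 MLL1-KO lines (-0.77) was larger in size than this difference between genotypes. The CYR61 call was lost under median ratio scaling, at -0.56, and under subtraction of the neighbouring median, at -0.16. Differences of -0.48 for TEAD1, -0.47 for CTGF, and -0.38 for AMOTL2 passed the p threshold but not 1.5-fold.

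Against the DKO lines, 4 of the 10 members were called, with 19.9% of all genes. ANKRD1 was lower in the MLL1-KO lines by -2.78 (adjusted p = 2.97e-14), CYR61 by -0.90 (adjusted p = 4.14e-10), and CTGF by -0.80 (SE 0.024, adjusted p = 2.63e-10), whereas WWTR1 was higher by 0.70 (SE 0.0361, adjusted p = 2.08e-08). So CTGF and WWTR1, called in no line against parental, differed between lines that lay on opposite sides of it. Between the SAP30-KO and the DKO lines no member was called, against 7.47% of all genes, and 7 had an unadjusted p under 0.05. ANKRD1 stood at the threshold with -0.58 (SE 0.0223, adjusted p = 1.17e-08). It passed 1.5-fold under median ratio scaling at -0.60, under subtraction of the neighbouring median at -0.66, and with voom on recovered reads at -0.59. In that comparison AMOTL1 (-0.54), WWTR1 (0.46), YAP1 (-0.43), CTGF (-0.33), AXL (0.30), and CYR61 (-0.23) also passed the p threshold short of 1.5-fold. By the p threshold alone, the members that differed numbered 0 and 1 between the 2 SAP30-KO and the 2 DKO lines and 6 between the MLL1-KO lines, against 0.524%, 12.5%, and 42.1% of all genes. They numbered 9 for the MLL1-KO against the SAP30-KO lines and 8 for the MLL1-KO against the DKO lines (67.8% of all genes each), and 7 for the SAP30-KO against the DKO lines (48.6%).

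**Figure D4:**
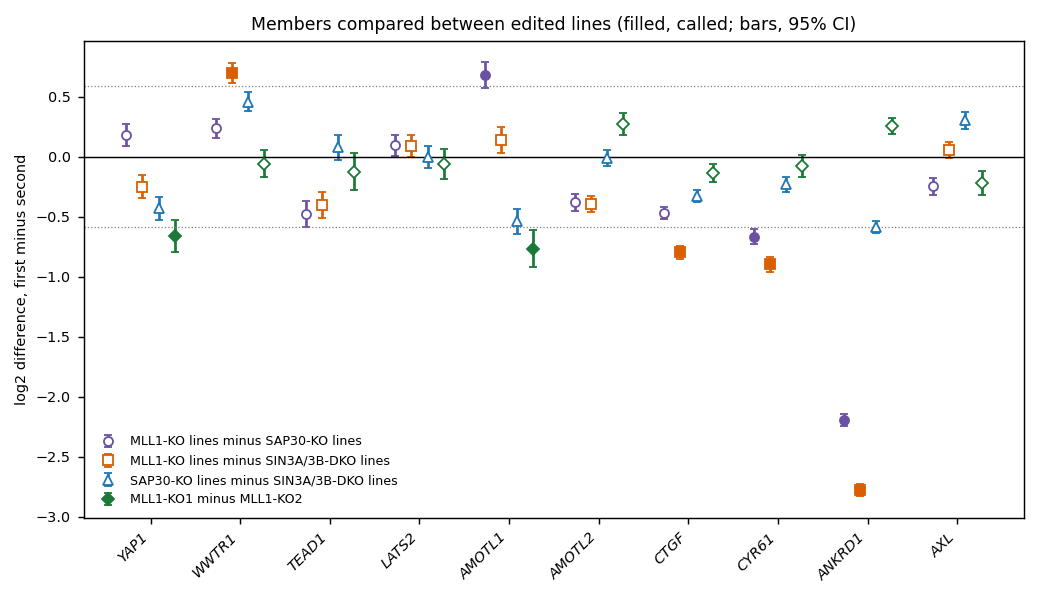
Log2 differences (vertical axis, first group minus second) of the 10 genes between edited lines, for the MLL1-KO minus the SAP30-KO lines, the MLL1-KO minus the DKO lines, the SAP30-KO minus the DKO lines, and MLL1-KO1 minus MLL1-KO2; filled symbols were called, bars are 95% confidence intervals, and dotted lines mark 1.5-fold. ANKRD1 is the gene farthest from 0, at -2.19 and -2.78 for the MLL1-KO lines.

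Other genes of the pathway were followed as lists. Of 16 other YAP and TAZ target genes, SAP30-KO1 had 3 called lower and 1 higher, SAP30-KO2 had 3 and 2, each DKO line had 3 and 1, MLL1-KO1 had 6 and 1, and MLL1-KO2 had 6 and 3. Of all tested genes, 7.86%, 8.12%, 8.66%, 7.56%, 16.3%, and 14.9% were called lower in the 6 lines, and these shares and those called higher, given above, are the background for this list and the next ones. FOXF2, a forkhead transcription factor, went from 17.9 and 15.7 TPM in parental cells to 0.505 and 0.797 TPM in MLL1-KO1, and its difference was -1.57 and -1.46 in the SAP30-KO lines, -2.81 and -2.90 in the DKO lines, and -3.92 and -3.86 in the MLL1-KO lines (SE 0.206). F3, the gene of tissue factor, was at 445 and 418 TPM in parental cells. It was called lower in all 6 lines, by -0.84 and -0.95 in the SAP30-KO lines, -0.87 and -0.66 in the DKO lines, and -1.77 and -2.05 in the MLL1-KO lines.

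IGFBP3, which binds insulin-like growth factors, was at 105 and 102 TPM in parental cells and fell by 1.28 and 1.45 in the SAP30-KO lines and by 1.38 and 0.98 in the DKO lines. It rose in MLL1-KO2 by 0.74 and was at 127 TPM in both MLL1-KO1 libraries, not called. Also called lower in both MLL1-KO lines were TGFB2, a TGF-β ligand (-1.96 and -2.36), CRIM1 (-1.46 and -1.57), NUAK2 (-1.16 and -1.37), and MYOF (-0.60 and -0.96). Of these, NUAK2 was low, at 4.38 and 3.86 TPM in parental cells and 0.955 to 1.68 TPM in the MLL1-KO libraries. CCDC80, a secreted matrix protein, rose in all 6 lines, by 0.72 and 0.78 in the SAP30-KO lines, 0.62 and 0.66 in the DKO lines, and 0.95 and 1.67 in the MLL1-KO lines. The median over the 16 genes was -0.31, -0.21, -0.14, 0.03, -0.33, and -0.13 in the 6 lines.

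**Figure D5:**
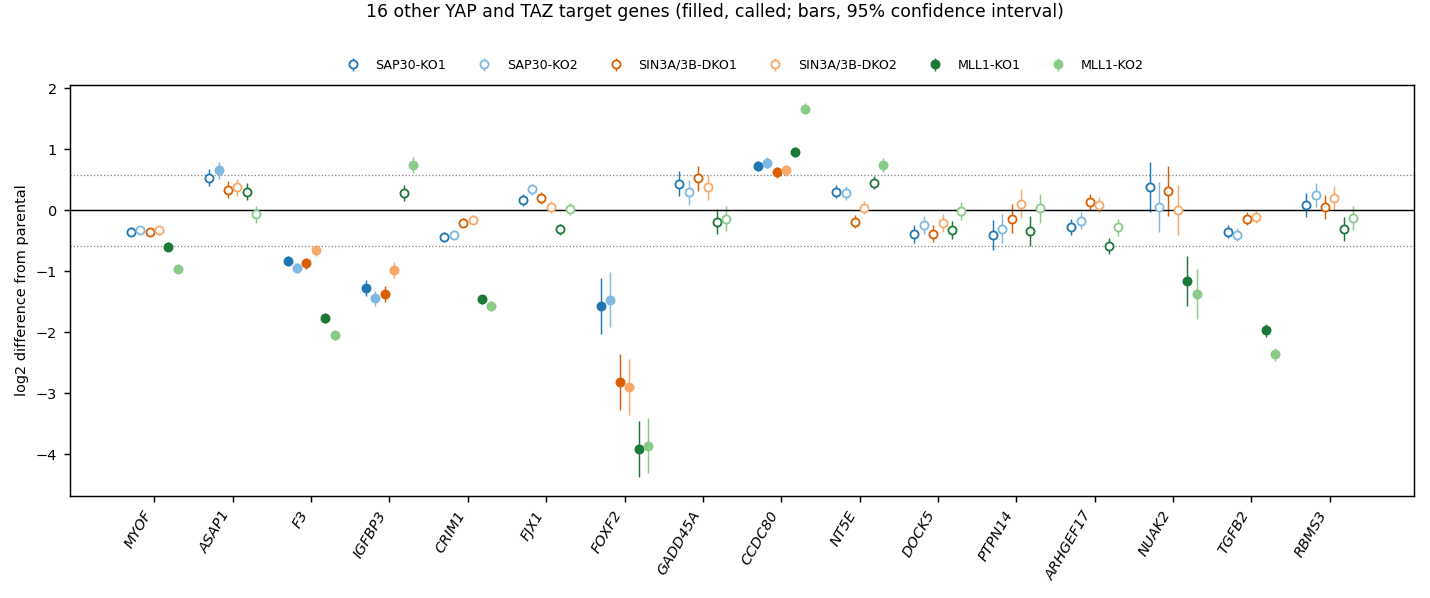
Log2 difference from parental (vertical axis) of 16 other YAP and TAZ target genes (horizontal axis) in the 6 edited lines (colors); filled points were called, bars are 95% confidence intervals, and dotted lines mark 1.5-fold. FOXF2 and F3 are below 0 in all lines, CCDC80 is above 0 in all, and IGFBP3 is below 0 in the SAP30-KO and DKO lines and above it in the MLL1-KO lines.

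Of 15 genes of the Hippo kinase cassette, 1, 2, 1, 0, 5, and 3 were called lower in the 6 lines and 1 was called higher in MLL1-KO2. These counts are about those of the background of lower calls, except the 5 in MLL1-KO1, where it was 16.3%. STK3, STK4, SAV1, LATS1, MOB1A, MOB1B, NF2, FRMD6, and TAOK2 were called in no line. WWC1, whose protein KIBRA activates LATS, fell by 0.66 and 0.65 in the SAP30-KO lines and by 0.78 and 1.54 in the MLL1-KO lines, and was at -0.21 and 0.04 in the DKO lines. WWC3 fell by 1.16 and 1.08 in the MLL1-KO lines and was at -0.39 to -0.48, not called, in the other lines. The kinase gene TAOK1 was below parental in all 6 lines and was called in 4, at -0.61 in SAP30-KO2, -0.72 in SIN3A+SIN3B-DKO1, and -0.86 and -0.66 in the MLL1-KO lines. It was at -0.55 in SAP30-KO1 and -0.49 in SIN3A+SIN3B-DKO2. The single higher call was MAP4K4, at 0.72.

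Of 10 genes of junction and polarity inputs, 8 were tested, and 2, 2, 2, 1, 3, and 3 of them were called lower in the 6 lines and none higher, where 7.56% to 16.3% of all tested genes were called lower. WTIP, an Ajuba family LIM protein known to inhibit LATS, was at 10.3 and 10.0 TPM in parental cells and was called lower in all 6 lines, from -0.83 in SAP30-KO2 to -2.18 in MLL1-KO1 (SE 0.172). The protocadherin FAT4 fell by 0.99 and 0.69 in the SAP30-KO lines and by 1.63 and 0.82 in the MLL1-KO lines. It fell in SIN3A+SIN3B-DKO1 by 0.79 and was at -0.38 in SIN3A+SIN3B-DKO2, not called. Of 7 other TEAD and VGLL genes, 5 were tested. Of these, 1 was called lower in each MLL1-KO line, and 1, 0, 1, 0, 2, and 2 were called higher in the 6 lines. TEAD2, a paralog of TEAD1, was at 28.7 and 30.6 TPM in parental cells and at 6.06 and 6.04 TPM in MLL1-KO1, and fell by 2.20 and 1.78 in the MLL1-KO lines. It was at -0.57 and -0.58 in the DKO lines, just short of 1.5-fold, and at 0.25 and 0.29 in the SAP30-KO lines. TEAD3 and TEAD4 were called in no line. VGLL4, which competes with YAP for TEAD, was at 35.0 and 37.1 TPM in parental cells and rose by 0.85 and 1.01 in the MLL1-KO lines. It was at 0.40 and 0.44 in the SAP30-KO lines, not called. VGLL3 was low and uneven in parental cells, at 2.84 and 1.98 TPM. It was above parental in all 6 lines (SE 0.139). It was called in 4, by 0.59 in SAP30-KO1, close to the threshold, 0.80 in SIN3A+SIN3B-DKO1, and 0.763 and 1.003 in the MLL1-KO lines. In SAP30-KO2 it was at 0.35 and in SIN3A+SIN3B-DKO2 at 0.51.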

How the data were processed

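RNA was taken from parental MDA-MB-231 cells and 6 edited lines, 2 libraries each, with groups and replicate numbers from the submitters' labels. Libraries were made with the KAPA mRNA HyperPrep kit. The submitters' processing notes name FastQC 0.11.2, TopHat, featureCounts, and hg19, and the annotation is not given in the sources used here. The authors deposited 1 value per gene and library, named RPKM, but each library adds up to 1 total, so the deposited values were treated as TPM (the test had been designed for RPKM and suits both).

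Low values rise in steps of 1 read, which gave whole reads for 18519 of 18519 genes above 0 (within 0.02 reads). Genes with at least 1 TPM in at least 2 of 14 libraries were fitted on the log2(TPM + 0.5) scale with limma 3.58.1 (R 4.3.3), as 7 condition means with a variance trend, with 7 residual and 3.58 prior degrees of freedom. Benjamini-Hochberg adjustment ran over all 13540 genes within each of 12 comparisons. On simulated data for SAP30-KO1 against parental, 175 of 196 changed genes among the 13214 tested were recovered in the right direction, with 11 unchanged genes called. Alternatives were pseudocounts of 0.1 and 1, no filter, quantile normalization, median ratio scaling, other fold minimums, the libraries compared alone, a replicate block, each library left out, and subtraction of a running median over 51 neighbouring genes. Limma's voom on recovered reads was chosen after seeing the data.

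Positions are GENCODE on GRCh37. Promoters are from RefSeq on GRCh38.p14, and printed windows were located in GRCh37 by exact match. All 10 members were named. From the other lists, up to 3 genes per direction and genotype called in both lines with the largest mean change were named. CRIM1, NUAK2, MYOF, MAP4K4, and genes called in no line were added after their values were seen. The members and lists were chosen with earlier results of these data known. VGLL1 was not analysed here. Python 3.11.15 with pandas 2.3.3 and matplotlib 3.10.9 was used for counts and plots. The 2 libraries of every condition differed by more than sampling noise (chi-square per degree of freedom 1.46 to 7.66), and each was counted as a replicate.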

Additional observations from a re-analysis of the deposited data

Results flagged for a closer look

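Differences between edited lines were tested directly, in the same fit over all genes, and 9 passed both thresholds. Between the 2 lines of the same genotype, YAP1 (-0.66) and AMOTL1 (-0.77) were lower in MLL1-KO1 than in MLL1-KO2, in both libraries of each line. The median of the 50 genes nearest to YAP1 relative to parental was -0.92 in MLL1-KO1 and was -0.36 in the other line.

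Between genotypes, ANKRD1 was lower in the MLL1-KO lines than in the SAP30-KO lines (-2.19) and than in the DKO lines (-2.78), and every MLL1-KO library was below every other library. CYR61 was lower in the MLL1-KO lines than in the SAP30-KO lines (-0.67) and than in the DKO lines (-0.90), again with no overlap. Its call against the SAP30-KO lines was lost under median ratio scaling (-0.56) and under subtraction of the neighbouring median (-0.16). AMOTL1 was higher in the MLL1-KO than in the SAP30-KO lines (0.68), with MLL1-KO1 at 36.0 and 34.7 TPM and MLL1-KO2 at 59.1 and 61.9 TPM. CTGF (-0.80) was lower and WWTR1 (0.70) higher in the MLL1-KO than in the DKO lines, although neither was called in any line against parental. The targets CTGF and ANKRD1 were ordered differently over the conditions: the DKO libraries had the highest CTGF, the parental libraries the highest ANKRD1.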

How the results depend on the processing

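With no change to the values, the fold minimum decided most counts. With no fold minimum, members called lower numbered 6, 6, 5, 7, 7, and 7 in SAP30-KO1, SAP30-KO2, SIN3A+SIN3B-DKO1, SIN3A+SIN3B-DKO2, MLL1-KO1, and MLL1-KO2 and members called higher 2, 2, 1, 1, 1, and 2. Between lines they were 1 lower between the DKO lines, 4 lower and 2 higher between the MLL1-KO lines, 6 and 3 for MLL1-KO against SAP30-KO, 6 and 2 for MLL1-KO against DKO, and 5 and 2 for SAP30-KO against DKO. With a minimum of 2-fold they were 1, 1, 0, 0, 2, and 1 lower in the 6 lines (AMOTL1 in the SAP30-KO lines, and in the MLL1-KO lines ANKRD1, with CYR61 in MLL1-KO1), 0 between the MLL1-KO lines, and 1 lower and 0 higher for MLL1-KO against SAP30-KO and against DKO.

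With the neighbouring median subtracted, members called lower numbered 1 in SAP30-KO2, 0 in both DKO lines, 2 in MLL1-KO1, 0 between the MLL1-KO lines, and 1 each for MLL1-KO against SAP30-KO and SAP30-KO against DKO, and 1 was called higher in SIN3A+SIN3B-DKO1. YAP1 reversed to 0.0639, 0.126, and 0.0779 in SAP30-KO1, SAP30-KO2, and MLL1-KO1. Median ratio scaling gave 1 lower for MLL1-KO against SAP30-KO and 1 for SAP30-KO against DKO, and voom on recovered reads 1 for the latter.

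Leaving out each library in turn gave 0 to 1 lower in SIN3A+SIN3B-DKO2 (AMOTL1, lost without replicate 1) and 0 to 1 for SAP30-KO against DKO (ANKRD1, -0.59 without SAP30-KO1 replicate 2, SAP30-KO2 replicate 2, SIN3A+SIN3B-DKO1 replicate 1, or SIN3A+SIN3B-DKO2 replicate 1). The lone library is then assumed to vary like the others. Pseudocounts, no filter, and the compared libraries alone changed no call count beyond 1.5 times.

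In a fit with a replicate block the count was 3 in SAP30-KO1 and changed in no comparison. Same-numbered libraries did not deviate together (correlation -0.073 to 0.082 over 21 pairs of groups). This shows no shared deviation but cannot tell whether same-numbered libraries were grown or prepared together.

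Quantile normalization moved the median of all genes in MLL1-KO1 from -0.09 to 0.04 and the share of lower calls among all calls from 70.3% to 51.6%, and in MLL1-KO2 from 59.3% to 48.4%. It moved from 68.6% to 56.4% between the MLL1-KO lines, from 65.3% to 51.5% for MLL1-KO against DKO, and from 68% to 50.4% for MLL1-KO against SAP30-KO (57.4% under median ratio scaling). Small differences of TEAD1, LATS2, and AXL (under 0.1) changed sign with the scaling. Depth did not limit the members, the lowest of which had 1021 reads. Precision is limited by 2 libraries a condition.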
